A study of Mus musculus with 2 samples.

Results

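The AP-1 and EGR immediate early factors are 10 transcription factor genes, taken by symbol from the tables of all genes: Fos, Fosb, Fosl2, Jun, Junb, Jund, Atf3, Egr1, Egr2 and Egr3. All 10 were found among the 23343 genes measured, each as 1 row of the tables. Poly(A) RNA came from untreated C57BL6J mice, from bone marrow eosinophils sorted as positive for CCR3 and SiglecF in 2 independent sorts, called sort 1 and sort 2. The sorts form 1 group, so levels are described and no condition is compared. The marrow was pooled, and how many mice were used, their age and their sex are not given in the labels. The labels name no genotype other than the strain.

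Immediate early genes are transcribed within minutes of a growth factor, cytokine or stress signal, without new protein synthesis, and their mRNAs and proteins are short-lived. AP-1 is a dimer of leucine zipper proteins, in which a JUN protein binds DNA with itself or with a FOS or ATF protein, while FOS proteins do not form stable dimers with each other. EGR proteins bind GC-rich DNA through zinc fingers, and the NAB proteins act on them as co-repressors. In the myeloid lineage of mice, JunB is known to restrain the expansion of granulocytes and their precursors.

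The upstream sequences of the 3 genes with the highest levels, Fos, Fosl2 and Junb, are shown because their levels dominate the results below. Each is the 250 bases before the RefSeq start, on the gene's strand, from RefSeq on GRCm38.p6, the assembly that mm10 represents. Sequences were given for 8 of the 10 genes and not for Egr1 and Egr3. Capitals mark matches to motifs searched on both strands: the core of the cyclic AMP response element, TGACG, the EGR motif GCGNGGGCG and the TATA motif TATAAA. The Fos window is chr12:85473640-85473889 on the plus strand, the Fosl2 window chr5:32136222-32136471 on the plus strand and the Junb window chr8:84978749-84978998 on the minus strand.
Fos: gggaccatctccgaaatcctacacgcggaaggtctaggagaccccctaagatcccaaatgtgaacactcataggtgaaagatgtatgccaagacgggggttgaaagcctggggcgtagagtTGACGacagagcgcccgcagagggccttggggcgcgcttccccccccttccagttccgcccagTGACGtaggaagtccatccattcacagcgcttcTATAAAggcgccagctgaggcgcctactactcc
Fosl2: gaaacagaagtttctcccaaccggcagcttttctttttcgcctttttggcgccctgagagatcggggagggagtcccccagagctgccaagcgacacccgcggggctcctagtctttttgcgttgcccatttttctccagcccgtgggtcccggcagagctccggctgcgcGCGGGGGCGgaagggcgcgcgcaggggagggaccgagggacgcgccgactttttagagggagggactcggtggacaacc
Junb: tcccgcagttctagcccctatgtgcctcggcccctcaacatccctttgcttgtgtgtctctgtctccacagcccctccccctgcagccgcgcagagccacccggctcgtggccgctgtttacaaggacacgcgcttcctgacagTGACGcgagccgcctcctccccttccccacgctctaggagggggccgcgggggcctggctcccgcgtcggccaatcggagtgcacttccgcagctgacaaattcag

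None of the motifs searched was in all 3 of these windows. Fos held a TATA motif from 33 to 28 bases before the start, and cores from 66 to 62 and from 129 to 125 bases before it. Junb held 1 core, from 106 to 102 bases before its start, and Fosl2 held none. Of the 8 genes, 5 had the core (Atf3, Egr2, Fos, Fosb and Junb), against 17.8% of all 32851 windows of the same length. The EGR motif was in Fosb and Fosl2, where it lay from 79 to 71 bases before the start, and in 4.70% of all windows. The TATA motif was in Fos alone and in 12.4% of all windows. The CArG box, the motif bound by serum response factor, was in the windows of Egr2 alone among the 8 genes, and in 1.47% of all windows. Bases further upstream were not searched, nor were Egr1 and Egr3, so boxes outside these windows would be missed. No window of the 8 genes held TGANTCA, the AP-1 motif, the full element TGACGTCA, or TTCNNNGAA, the STAT motif, which were in 6.75%, 1.55% and 7.02% of all windows. The full element contains the core, and the other motifs were searched separately. Egr2 has several starts and so several windows. These matches describe letters and not binding.

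Sort 1 had 10087743 reads in all and sort 2 had 9264150, of which the ribosomal RNA precursor Rn45s took 9.07% and 0.963%. Levels are given as RPKM, reads scaled by transcript length and by the depth of the library, as deposited. The depth behind the RPKM was 40.4 units of 1000000 reads in sort 1 and 40.5 in sort 2, so the tables' own reads were 24.9% and 22.9% of it. The deposited values thus lie below those that the table totals would give. All 7 eosinophil markers in the tables, Ccr3, Siglec5 (SiglecF), Prg2, Epx, Il5ra, Prg3 and Alox15, had at least 1 RPKM in both sorts and summed to 1939 RPKM in sort 1 and 2462 in sort 2. All 11 neutrophil markers in the tables did so too, with sums of 4303 and 4120 RPKM, and 6 of 9 monocyte and macrophage markers, with sums of 251 and 183. No listed marker of any of the 9 cell types was at 0 in both sorts. Sort 1 had 47487 reads of Xist and none of the Y-linked Kdm5d and Ddx3y, and sort 2 had 5, 756 and 745. By these reads, sort 1 came mainly from female and sort 2 mainly from male mice. Differences between sort 1 and sort 2 thus cannot be told apart from differences of sex. In such bulk samples, fewer cells of a type and less RNA per cell cannot be told apart. The part of these differences in the results below was not tested. Nor was the part of the levels below that came from neutrophils or other cells.

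Transcripts of AP-1 were present in the sorted samples mainly as Fosl2, Fos and Junb, while Fosb, Atf3, Egr2 and Egr3 were at 0.591 RPKM or less in each sort. Of the 10 genes, 6 had at least 1 RPKM in both sorts, the level taken here as detected, beside 30.2% of all genes. The 10 genes summed to 57.7 RPKM in sort 1 and 46.7 in sort 2. The FOS genes made up 69.3 ± 5.18% of that sum, the JUN genes 24.2 ± 2.53% and the EGR genes 6.34 ± 2.75% (SD, n = 2 sorts). By reads, counted without regard to length, the JUN share was 15.7% and the EGR share 5.35%.

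**Figure D1:**
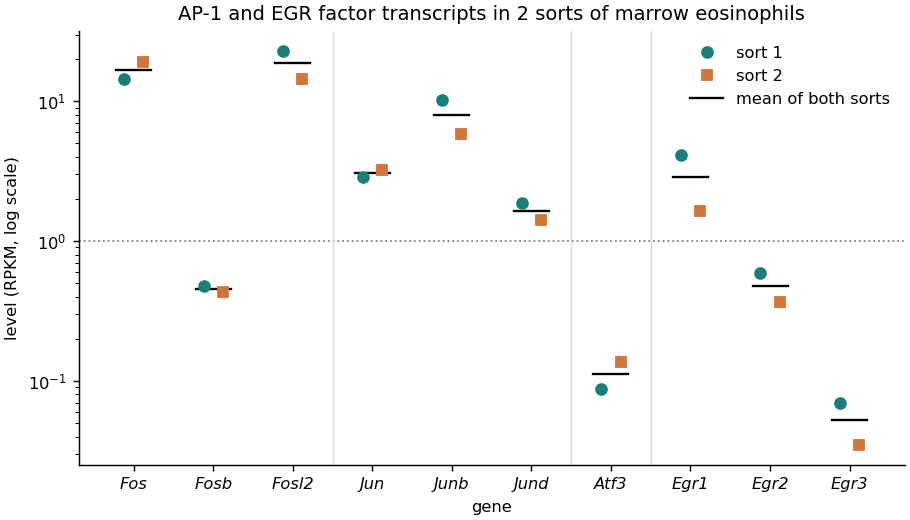
Level of each gene in RPKM on a log scale, with circles for sort 1, squares for sort 2 and a bar for their mean; the dotted line is 1 RPKM and pale lines part the FOS, JUN, ATF3 and EGR groups. Fosl2, Fos and Junb lie highest, from 5.80 to 22.9 RPKM, and Atf3 and Egr3 lowest, from 0.0348 to 0.137 RPKM.

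Among the FOS genes, Fosl2, which encodes Fra-2, a FOS protein without the strong C-terminal activation domain of c-Fos, had 5437 reads and 22.9 RPKM in sort 1 and 3428 reads and 14.4 RPKM in sort 2. Its mean of 18.6 ± 6.01 RPKM (SD, n = 2) was the highest of the 10 and ranked 692 of all genes. In the deposited tables, on mm10, Fosl2 spans chr5:32136472-32157839, Fos spans chr12:85473901-85477270 and Junb spans chr8:84976909-84978748. Fos, which encodes c-Fos, had 1229 reads and 14.5 RPKM in sort 1 and 1632 reads and 19.2 RPKM in sort 2, a mean of 16.8 ± 3.32 RPKM. The values of Fos and Fosl2 overlapped and their order differed between the sorts, since the RPKM ratio of Fos to Fosl2 was 0.633 in sort 1 and 1.33 in sort 2. Fosb, which encodes FosB and by alternative splicing the shortened ΔFosB, had only 73 and 66 reads, or 0.477 and 0.430 RPKM. The tables give Fosb 1 row, so its isoforms were not separated. Fosl2 exceeded Fosb 48.0-fold in sort 1 and 33.5-fold in sort 2.

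Junb led the JUN genes with 763 reads and 10.2 RPKM in sort 1 and 433 reads and 5.80 RPKM in sort 2, a mean of 8.02 ± 3.14 RPKM (SD, n = 2). JunB is a JUN protein that often opposes c-Jun on shared targets. Jun, which encodes c-Jun, had 371 and 419 reads, or 2.87 and 3.24 RPKM, and was among the genes whose values differed least. The ratio of Junb to Jun was 3.56 in sort 1 and 1.79 in sort 2, and Junb lay above Jun in both. Jund, whose protein is held back by menin, had 219 and 165 reads, or 1.88 and 1.41 RPKM, below both at the deposited lengths. Summed FOS transcripts exceeded summed JUN transcripts 2.53-fold in sort 1 and 3.26-fold in sort 2.

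The JUN genes have 1 exon each and share bases with genes on the opposite strand in the GENCODE M21 annotation. Junb shares 173 exonic bases with Prdx2, a peroxiredoxin, which had 130 and 76 reads and a log2 ratio of sort 1 to sort 2 of 0.70. Jund shares 877 with the antisense gene Gm11175, and Jun 232 with the antisense gene Junos, neither of which is a row of the tables. The libraries were stranded, but no source used here gives the strand setting of the counting, so reads of these partners cannot be told apart from those of the JUN genes, and their part was not tested. The length behind the Jund RPKM was 2883 bases, against 1668 in the matched GENCODE transcript, so its level per length depends on the gene model. With RPKM recomputed from GENCODE lengths and the table totals, Jund had 13.0 RPKM in sort 1 and 10.7 in sort 2, against 11.5 and 14.2 for Jun, so Jund lay above Jun in sort 1.

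**Figure D2:**
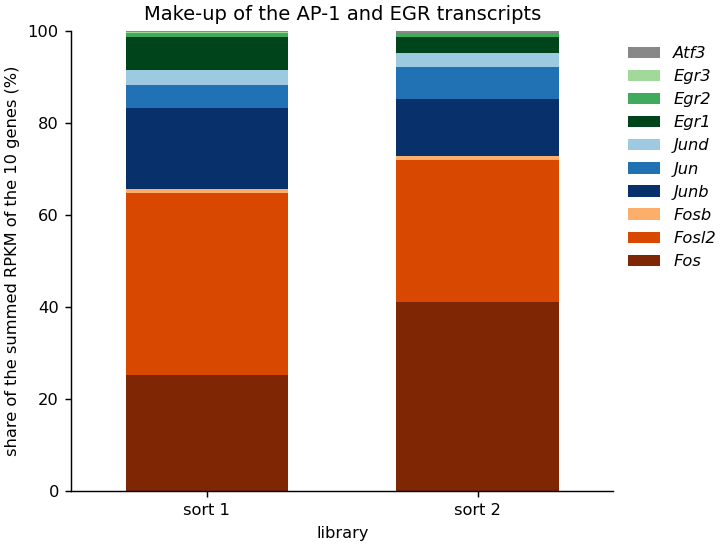
Share of each gene in the summed RPKM of the 10 genes, in percent, stacked for sort 1 and sort 2. Fosl2 took 39.7% in sort 1 and 30.9% in sort 2, and Fos 25.1% and 41.1%, so the leading gene differed between the sorts.

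Atf3, a stress-induced factor that pairs with JUN proteins, had 7 reads in sort 1 and 11 in sort 2. Exact 95% Poisson intervals of these counts, which cover counting error only, were 2.81 to 14.4 and 5.49 to 19.7. They overlap, and at 0.0875 and 0.137 RPKM Atf3 lay below every FOS and JUN gene.

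The EGR genes were represented mainly by Egr1, the member known for rapid induction by serum and antigen receptor signals, with 86.2% of their summed RPKM in sort 1 and 80.5% in sort 2. Egr1 had 513 reads and 4.12 RPKM in sort 1 and 206 reads and 1.65 RPKM in sort 2. Sort 1 was the higher, and the mean was 2.89 ± 1.75 RPKM (SD, n = 2). Egr2, a factor of Schwann cells and of lymphocyte anergy, had 71 and 44 reads, or 0.591 and 0.365 RPKM. Egr1 exceeded Egr2 6.97-fold in sort 1 and 4.52-fold in sort 2. Egr3, a relative of Egr2 in lymphocytes, had 4 reads in sort 1 and 2 in sort 2, with exact 95% Poisson intervals of 1.09 to 10.2 and 0.242 to 7.22, which overlap.

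Ordered by mean RPKM, the genes ran Fosl2, Fos, Junb, Jun, Egr1, Jund, Egr2, Fosb, Atf3 and Egr3. Of the 9 neighbouring pairs, 5 had values that did not overlap, and Fosl2 with Fos, Jun with Egr1, Egr1 with Jund, and Egr2 with Fosb overlapped. Egr1 lay above Jund in each sort at the deposited lengths, while the other overlapping pairs changed order between the sorts. With GENCODE lengths Egr1 had 16.8 and 7.32 RPKM, so that Jund, at 10.7, lay above it in sort 2. An exact permutation test of 2 against 2 values cannot give a two-sided p below the threshold, so no pair was tested. Atf3 and Egr3 rest on 18 and 6 reads over both libraries, and the Poisson intervals of their counts overlap in each sort. The length behind the Egr3 RPKM was 1418 bases, against 3940 in the matched GENCODE transcript.

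The genes nearest to the leading members in level were sought by the Euclidean distance of log2(RPKM + 1) over the 2 libraries. For Fosl2 they were Fbrs, Rps10 and Slc9a3r1, for Fos they were Pdzd8, Vezf1 and Ncl, and for Junb they were D8Ertd738e, Mfsd5 and Cd177. The distances ran from 0.0244 to 0.0656 on the log2 scale. With 2 libraries this measure finds genes of similar level and similar ratio between the sorts, and no more.

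Between the sorts, Egr1 alone passed both thresholds, which were 0.05 for the adjusted p and 2 for the fold. Egr1 was 2.37-fold higher in sort 1, a log2 ratio of 1.24 with a 95% interval of 1.02 to 1.49 for counting error (exact binomial test on TMM-scaled counts, Benjamini-Hochberg adjusted p = 1.12e-26). This was 1 of 9 genes with enough reads to test, beside 7.99% of all 12347 tested genes, a share that 1 of 9 does not stand apart from. With 1 library a sort, the binomial test sets the difference against counting error only and does not measure the variation between sorts. The exact test of edgeR with the dispersion of both libraries gave Egr1 an adjusted p of 0.459 and an unadjusted p of 0.0122. It called none of the 9, with 1 at an unadjusted p under 0.05, beside 6.20% of all tested genes, and called 33 of all 12347 tested genes, or 0.267%. That dispersion was estimated from the same 2 libraries taken as 1 group, so it holds the differences under test. The few calls thus do not show that the sorts are alike.

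Below a fold of 2, 5 further genes had an adjusted p under 0.05 in the binomial test. In all, 6 of 9 thus did so, beside 44.5% of all tested genes. Higher in sort 1 were Junb by 1.68-fold (log2 interval 0.58 to 0.93), Fosl2 by 1.52-fold (0.54 to 0.66) and Jund by 1.27-fold (0.05 to 0.64). Lower in sort 1 were Fos, with a log2 ratio of -0.47 (-0.58 to -0.37), and Jun with -0.24 (-0.45 to -0.03). For Jund and Jun the adjusted p values were 0.0488 and 0.0471 by the exact binomial test, close to the threshold. Egr2 had a log2 ratio of 0.60 (0.06 to 1.20), Fosb 0.08 (-0.42 to 0.58) and Atf3 -0.58 (-2.32 to 0.78), and none of these passed. With Egr1 counted, sort 1 was thus the higher for 4 of the 6 genes that passed, and sort 2 for the other 2. Of all tested genes, 21.9% passed with sort 1 the higher and 22.5% with sort 2 the higher. The median log2 ratio of the 9 was 0.34, beside 0.00404 for all tested genes. That median is the ratio of Jund and does not allow for the GC trend given below. Less this trend, Jund had a log2 ratio of -0.05 and no longer passed (exact binomial test, adjusted p = 0.856). By the binomial test, which covers counting error only, Fosl2 and Junb were higher in sort 1 and Fos and Jun in sort 2. The exact test of edgeR gave unadjusted p of 0.124 for Junb, 0.210 for Fosl2, 0.326 for Fos and 0.631 for Jun. Opposite directions beyond the variation between sorts are thus not shown.

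**Figure D3:**
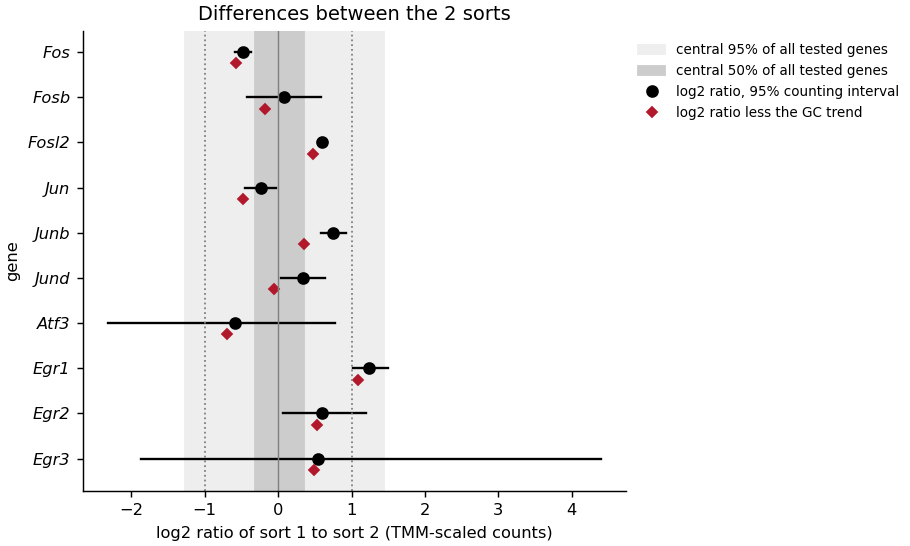
Log2 ratio of sort 1 to sort 2 for each gene, with black points and 95% counting intervals, and red diamonds for the ratio less the GC trend; grey bands hold the central 50% and 95% of all tested genes and dotted lines mark a fold of 2. The Egr1 interval, 1.02 to 1.49, lies beyond the fold of 2 but does not allow for the GC trend, less which the Egr1 ratio is 1.08. The Fos and Fosl2 intervals lie on opposite sides of 0.

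Ratios between the sorts followed transcript GC content across genes, with a Spearman correlation of 0.54 over 8680 genes that share both libraries. The 10 genes had 51.4 to 67.2% GC, all above the median of 49.6%. Junb, at 62.6% GC, and Jund, at 67.2%, lay beyond the middle of the highest GC bin. For both the trend was held at the value of that bin, 0.39 on the log2 scale. Less this trend, the log2 ratio of Junb was 0.36 (exact binomial test, adjusted p = 0.000221). That of Jund was -0.05, its sign turned. Egr1, at 53.6% GC, had 1.08 less the trend, and Fosl2 had 0.48. Fos stood at -0.58 and Jun at -0.48, both further from 0 than without the correction. For Fosb the sign also turned, to -0.18, and Fosb passed no threshold either way.

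**Figure D4:**
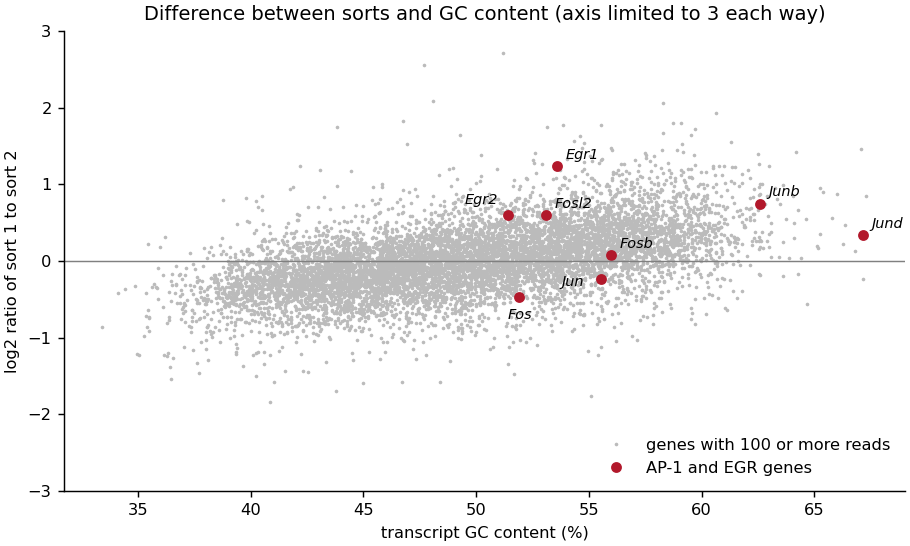
Log2 ratio of sort 1 to sort 2 against transcript GC content in percent, with grey points for genes with at least 100 reads and red points for the 8 AP-1 and EGR genes among them. Ratios are higher at higher GC content, and Junb and Jund lie at the right end at 62.6 and 67.2%. Egr1, near 53.6% GC, lies in the upper part of the points, above 96.3% of all tested genes, and some genes of similar GC content lie higher.

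AU-rich elements in the 3' untranslated region are known to speed the decay of immediate early mRNAs. All 10 genes held at least 1 pentamer ATTTA there in the matched GENCODE transcripts. The longer match TATTTAT was found in 6 of them, against 25.6% of 19127 genes with such a region. These shares do not allow for length, which ran from 485 to 4653 bases in the 10 genes and had a median of 794 in the 19127. Fos held 2 in 815 bases, and 3.88% of genes with a region within 20% of that length held as many. Fosl2 held 3 in 4653 bases, as many as 11.7% of genes of similar region length. Jun, Jund, Fosb and Atf3 held 1 each, and Junb, Egr1, Egr2 and Egr3 held none. Of genes of similar region length, 27.9% held at least as many as Jun, 13.2% as Jund, 40.4% as Fosb and 27.2% as Atf3.

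Other leucine zipper factors that can pair with or compete with AP-1 proteins were mostly detected. Of 25 such genes, 17 were detected, with medians of 3.63 RPKM in sort 1 and 3.18 in sort 2. The highest were Atf1, a factor of the cyclic AMP response, at 28.7 ± 3.18 RPKM, Nfe2l2, the oxidative stress factor NRF2, at 21.8 ± 4.73, Nfe2, its relative of blood lineages, at 20.2 ± 0.508, and Atf4, of the integrated stress response, at 19.4 ± 1.70 (SD, n = 2). Each of these had a mean above that of Fos. Fosl1, the remaining FOS gene, had 12 reads in sort 1 and none in sort 2. Setting sort 2 at a limit of 3 reads gave 3.83-fold, which leaves out the counting error of the 12 reads. Fosl1 and Atf5, with 25 and 10 reads, were the 2 genes of the 25 called between the sorts, both higher in sort 1, where 4.95% of all tested genes were called in that direction.

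**Figure D5:**
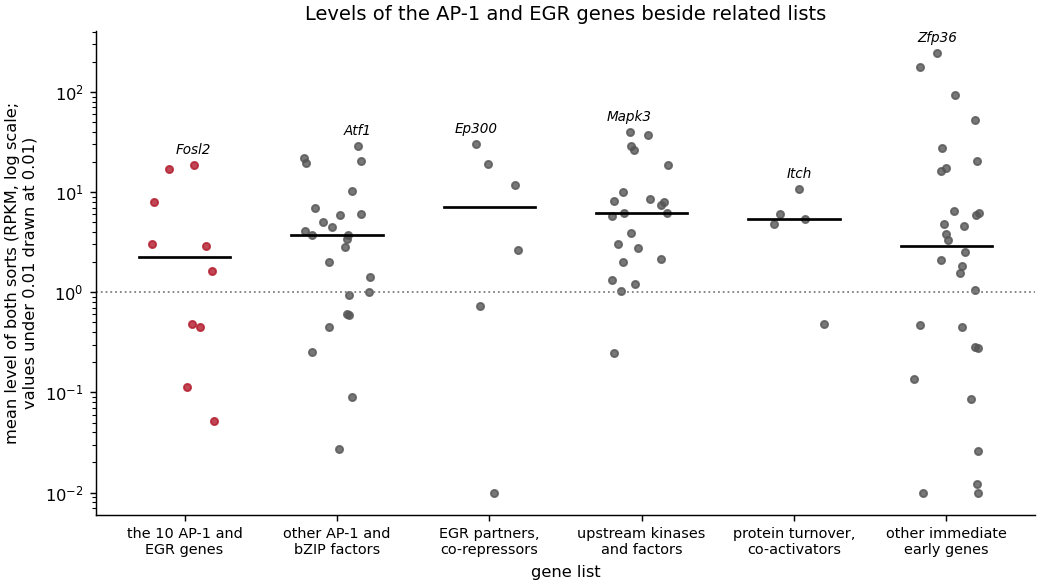
Mean RPKM of both sorts on a log scale for each gene of 6 lists, in red for the 10 AP-1 and EGR genes and in grey for the others, with a black bar at each median, the top gene named and a dotted line at 1 RPKM. Zfp36 leads at 244 RPKM, and Fosl2, the top of the 10, lies at 18.6 RPKM.

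Genes upstream of AP-1 and EGR transcription were mostly present. Of 22, 19 were detected, and the median RPKM was 6.41 in sort 1 and 6.19 in sort 2. Mapk3, the kinase ERK1, had 39.7 ± 3.43 RPKM, Mapk14, a stress-activated kinase, 37.1 ± 2.32, Mkl1, a co-activator of serum response factor, 28.7 ± 3.13, and Rps6ka1, a kinase downstream of ERK, 26.6 ± 7.32 (SD, n = 2). Map2k6, which activates stress kinases, was the 1 gene called of 22 tested, with 0.622 RPKM in sort 1 and 1.81 in sort 2, beside 3.05% of all tested genes called in that direction. Among EGR partners 4 of 6 were detected. The acetyltransferases Ep300 and Crebbp had 30.0 ± 4.91 and 19.1 ± 1.08 RPKM, Sp1, a factor of GC-rich promoters, 11.7 ± 0.407, and the co-repressor Nab1 2.65 ± 0.434 (SD, n = 2). Egr4 had no read in either sort, which allows up to 3 reads. Of 5 genes for the turnover or co-activation of AP-1 proteins 4 were detected. The ubiquitin ligases Itch, Fbxw7 and Rfwd2 had 10.8 ± 0.887, 6.05 ± 0.184 and 4.79 ± 0.526 RPKM, and Cops5, a co-activator of c-Jun, had 5.40 ± 0.778 (SD, n = 2). None of the 5 EGR partners and 5 turnover genes tested was called between the sorts, beside 7.99% of all tested genes.

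Some immediate early genes outside the AP-1 and EGR families reached higher levels than any of the 10, while others were not detected. Of 30, 19 were detected, with medians of 3.05 and 2.81 RPKM. Zfp36, which binds AU-rich elements and speeds their decay, had 244 ± 25.3 RPKM and Dusp1, a phosphatase of MAP kinases, 176 ± 32.7. The survival gene Mcl1 had 93.9 ± 12.5 RPKM and Btg2, an antiproliferative gene, 51.9 ± 0.673 (SD, n = 2). Called between the sorts were Gadd45b, with 75 reads in sort 1 and 34 in sort 2, and, higher in sort 2, Rgs1 with 551 and 1184 reads and Cd69 with 19 and 43, beside 3.05% of all tested genes called in that direction. None of the 6 genes called in these lists passed the exact test of edgeR after adjustment, whose dispersion holds the differences under test.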

How the data were processed

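Eosinophil RNA from 2 sorts was measured by stranded poly(A) RNA-seq. Reads were aligned with STAR 2.4.0c to mm10, per the submitters' processing notes; no source used here names the counting program. Per the file headers the tables hold read counts, whole numbers for each group of RefSeq transcripts, and RPKM values, both made by the authors. Both were summed per gene symbol over 26099 rows. The genes and lists were chosen with earlier results of these data known.

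Counts of the sorts were compared by a two-sided exact binomial test, with library sizes scaled by TMM in edgeR 4.0.16 and a prior count of 2 for ratios. Genes with under 10 reads in all were not tested. P-values were adjusted by Benjamini and Hochberg. edgeR's quasi-likelihood test needs replicates of each sort, of which there is 1, so it was not used. The binomial p-values measure counting error only. Those of edgeR's exact test use the dispersion between the 2 libraries taken as 1 group, which holds the differences under test. DESeq2 1.42.0 gave other size factors. The coefficient of variation from the dispersion of edgeR was 0.232, and it holds the differences between the sorts too. On simulated data the binomial test was checked. The GC trend was the medians of 20 bins of genes with at least 100 reads, interpolated between bins and held constant beyond the outermost. Transcript features came from GENCODE M21, matched by RefSeq accession for all 10 genes. Intervals cover counting error only.

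Named genes were all 10; the 4 highest by mean RPKM of each other list with any gene called; and the 3 genes nearest in level to each of the 3 highest members.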

Additional observations from a re-analysis of the deposited data

How the results depend on the processing

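No paired analysis was possible because both libraries belong to 1 group. The count of detected genes was 6, and 4 to 8 at other minimums or in CPM; leaving out either sort gave 6. Leaving out each sort gave a JUN share of 22.4 to 26.0% and an EGR share of 4.40 to 8.29%, and CPM gave a JUN share of 15.7%, since CPM does not divide by length. RPKM recomputed with GENCODE lengths and table totals was 1.49 to 7.20 times the deposited mean, from Egr3 to Jund. By it, in alternatives chosen after seeing the data, 8 genes were detected, Fosb and Egr2 being added, and 5 neighbouring pairs were separate. The mean of Fos, 70.7 RPKM, then lay above that of Fosl2, 69.5, but their values overlapped and Fosl2 was the higher in sort 1.

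Egr1 was the gene called under 6 alternatives of scaling, filter and GC correction. The edgeR exact test called 0 of the 9 genes and 33 of all genes. A fold of 1.5 called 3 (Egr1, Fosl2 and Junb) and 2245 of all genes, and a minimum of 50 reads called 481, in place of 987. Less the GC trend, the log2 ratios of Fosb and Jund were -0.18 and -0.053, the opposite sign. With 1 sort left out no ratio remains. Depth limits Egr3, with 6 reads, and Atf3, with 18.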
